A study of Penicillium oxalicum with 6 samples.

Results

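Gene loci that gave no signal in either strain were examined in Penicillium oxalicum, a filamentous fungus that secretes enzymes able to degrade raw starch. RNA was sequenced from mycelium of a POX_a00954 mutant (3 libraries) and of PoxKu70, the strain labelled WT and called the parent here (3 libraries). POX_a00954 encodes a transcription factor, as the series title says, and the name PoxKu70 points to Ku70, a protein of DNA end joining that is often removed in fungi to ease gene replacement. Cultures of either strain spent 24 h in glucose medium before a further 24 h with raw starch as their only carbon source, so the data cover 1 condition and 1 time. The labels leave unsaid which part of POX_a00954 was altered, whether the mutant is 1 clone, and whether replicate libraries stem from separate cultures. All p-values therefore measure only the spread between these libraries, which may be technical.

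A locus was taken as a member when its value was 0 FPKM (fragments mapped to a gene, scaled by its length and by the size of the library) in all 6 libraries and its ID carried one of the letters a to h, which stand for chromosomes I to VIII. There were 602 such loci among 9801 IDs with these letters, or 6.14%, and among 9822 IDs in all. The 21 IDs with the letter u were left out, of which 5 were also listed at 0 throughout. The members were thus chosen by the measured FPKM values of all 6 libraries, so their zeros are a description and carry no test. A further 762 loci lay above 0 in at least 1 library but under a mean of 1 FPKM, and 8437 loci with the letters a to h had a mean of at least 1 FPKM and were tested for a strain difference.

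Fungal genomes hold many genes that are transcribed only at certain stages or on certain media, such as genes for spore formation and gene clusters for secondary metabolites, and metabolite clusters often lie towards chromosome ends. Genome annotations also hold short predicted genes for which no transcript has been seen. The files and the reference table give the IDs no product or gene name, so no role is given here for any locus except POX_a00954 and POX_c03583, the transcription factor genes of the series title.

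The libraries of a strain resembled each other, with Pearson's r of log2(FPKM + 1) between 0.965 and 0.980 across the 8448 tested genes, against 0.750 to 0.808 between libraries of different strains. These coefficients were taken across genes, and genes are not replicates. POX_a00954 itself was at 283, 275 and 441 FPKM in the mutant libraries, against 716, 679 and 842 FPKM in the parent libraries. It was lower in mutant mycelium (log2 change -1.19, SE 0.20; limma, adjusted p = 0.0014) but was not near 0. POX_c03583 was also lower, at 94.7 ± 9.08 FPKM (SD) for the mutant and 186 ± 34.7 FPKM for the parent (3 libraries each; log2 change -0.96, SE 0.16; limma, adjusted p = 0.0014). POX_a00956, a locus of 276 bases whose number follows that of POX_a00954 by 2, was among the 602. The files hold no counts, so the depth of the libraries is not known.

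The loci listed at 0 were not spread evenly over gene length, and this bears on whether they can be called silent. Lengths were taken from the RefSeq table of strain HP7-1 (assembly ASM172317v3), as the span from the first to the last base of each gene, introns included. That table holds 580 of the 602 loci. The median length of these 580 was 262 bases, with quartiles at 168 and 436 bases. The 8383 tested genes found in the table had a median of 1464 bases, and the 742 loci above 0 but under a mean of 1 FPKM had a median of 1000.5 bases.

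The share of loci listed at 0 broke at a length of 200 bases. Of 217 loci of 200 bases or fewer, 207 were listed at 0, or 95.4%. Just above that length the share was far lower: of 85 loci of 201 to 220 bases, 38 were listed at 0, or 44.7%. Of 36 loci of 181 to 200 bases, 34 were. The share then fell with length, to 36.2% at 251 to 300 bases, 21.6% at 301 to 400 bases, 9.85% at 401 to 600 bases, 3.67% at 601 to 1000 bases and 0.525% above 1000 bases. Only 34 of the 6476 loci above 1000 bases were listed at 0.

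**Figure D1:**
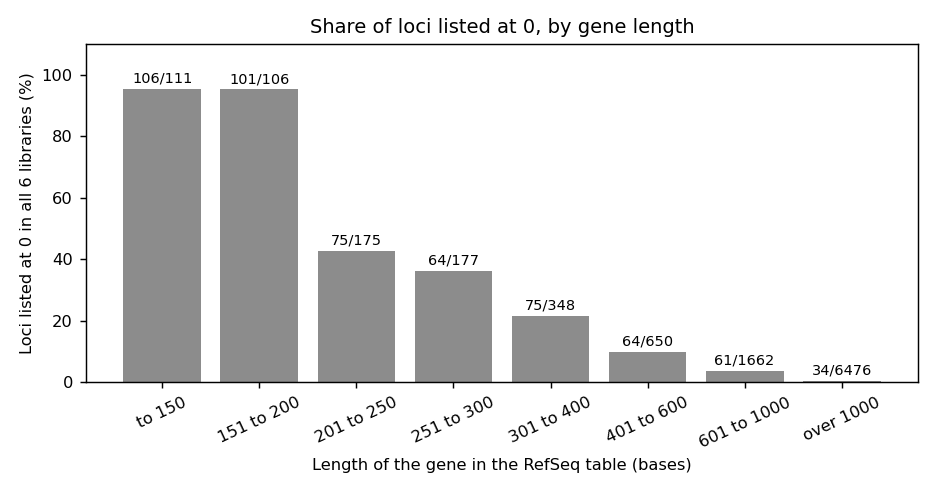
Percentage of loci with the letters a to h that were listed at 0 FPKM in all 6 libraries (vertical axis), by gene length in the RefSeq table in bases (horizontal axis); the numbers over the bars give loci listed at 0 over all loci of the class. The share stays at about 95% up to 200 bases and drops to 42.9% at 201 to 250 bases.

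Among the 10 loci of 200 bases or fewer that were not listed at 0, the highest was POX_e06983, a locus of 165 bases. It was at 16.9, 24.1 and 35.8 FPKM in the mutant libraries, against 13.3, 16.6 and 14.9 FPKM in the parent libraries. POX_d05768, of 99 bases, was at 18.5, 8.67 and 13.6 FPKM in the mutant libraries, against 13.0, 8.66 and 11.7 FPKM in the parent libraries. The strains overlapped in POX_d05768, while in POX_e06983 the lowest mutant value lay just above the highest parent value. No library was at 0 in either locus.

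Above 200 bases, many loci of similar lengths had values above 0. Of the 175 loci of 201 to 250 bases, 97 had a mean of at least 1 FPKM, and the highest mean in that class was 1503 FPKM. From long genes down to 201 bases, the lowest value above 0 tended to rise. Above 1000 bases the lowest value above 0 was 0.02 FPKM in the mutant libraries, against 0.01 FPKM in the parent libraries. At 301 to 400 bases it was 0.24 FPKM for the mutant and 0.04 FPKM for the parent, and at 201 to 220 bases 2.47 FPKM for the mutant and 1.71 FPKM for the parent. Between 0 and these values, the class of 201 to 220 bases held no value at all. The pattern ended there: the 10 loci of 200 bases or fewer reached down to 0.14 FPKM for the mutant and 0.22 FPKM for the parent. What set these lowest values was not tested.

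The loci just outside the rule showed the same dependence. There were 157 loci with 5 zeros and 1 value above 0, and that value was in mutant replicate 3 for 54 of them, in mutant replicates 1 and 2 for 19 and 28, and in parent replicates 1 to 3 for 19, 21 and 16. Across the 151 of them with a known length, value and length ran opposite to each other (Spearman's rho -0.82, a description across loci of the same 6 libraries). FPKM is scaled by gene length, so this direction is in part built into the unit. The median of the single value was 16.2 FPKM in the 13 loci of 201 to 220 bases, 1.89 FPKM in the 47 of 251 to 400 bases and 0.14 FPKM in the 23 above 1000 bases. POX_d05434 (2081 bases) missed the rule by 0.02 FPKM in parent replicate 2, POX_f08470 by 0.02 FPKM in mutant replicate 3 and POX_a01235 (1869 bases) by 0.04 FPKM in mutant replicate 2. At the other extreme, POX_e06230 (201 bases) was at 93.2 FPKM in mutant replicate 3, POX_a00543 (242 bases) at 90.7 FPKM in mutant replicate 2 and POX_b02453 (207 bases) at 56.9 FPKM in mutant replicate 1, each with 0 in every other library. How many fragments stand behind such values is not known, and no source used here says whether the length in the FPKM was shortened by the fragment size. With such a shortened length, very few fragments would give a large FPKM just above 200 bases, and this was not tested. FPKM values at these lengths are therefore not read as levels comparable with those of longer genes. These 3 loci did not pass the threshold between the strains (limma, adjusted p = 0.26 for each).

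**Figure D2:**
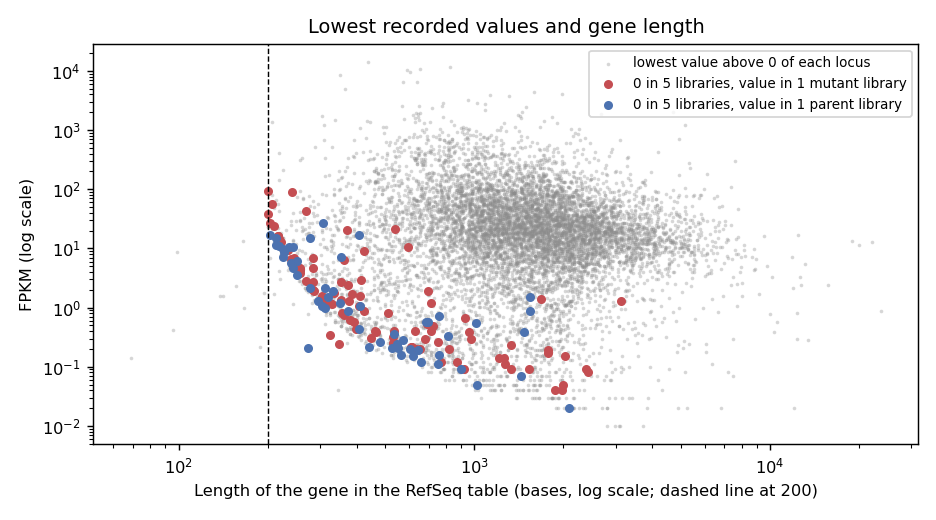
Lowest value above 0 of each locus that was not listed at 0 throughout (grey, FPKM on a log scale) against gene length in bases (log scale), with the 151 loci that had 5 zeros and 1 value in colour, red where the value was in a mutant library and blue where it was in a parent library. Coming from long genes, the lower edge of the points climbs towards 200 bases (dashed line), from 0.01 FPKM above 1000 bases to 1.71 FPKM at 201 to 220 bases.

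The word silent therefore does not hold equally for all members. For the 207 loci of 200 bases or fewer, transcripts that were absent and values that were not obtained cannot be told apart in these files, and no source used here says how the counting treated genes shorter than a sequenced fragment. All members are called loci listed at 0 below, and results are also given for the 373 loci above 200 bases. Of the 22 members that are not in the table, the length is not known. Such IDs made up 3.65% of the members and 0.804% of the other 9199 loci with the letters a to h.

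On the chromosomes, members were most frequent on III, VI and VIII and least frequent on VII. Chromosome VI had 100 of 1178 listed loci at 0 (8.49%), chromosome III 108 of 1290 (8.37%) and chromosome VIII 44 of 531 (8.29%). Chromosome V had 76 of 1169 (6.50%). Chromosomes II, IV and I had 5.17%, 4.90% and 4.85%, with 79, 66 and 93 loci, and chromosome VII had 36 of 840 (4.29%). Counting only loci above 200 bases kept VI and III at the top, at 5.76% and 5.65%, followed by VIII at 4.76% and V at 4.15%. The lowest share then was that of chromosome I, at 2.58%, where 44 of the 93 members had 200 bases or fewer.

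**Figure D3:**
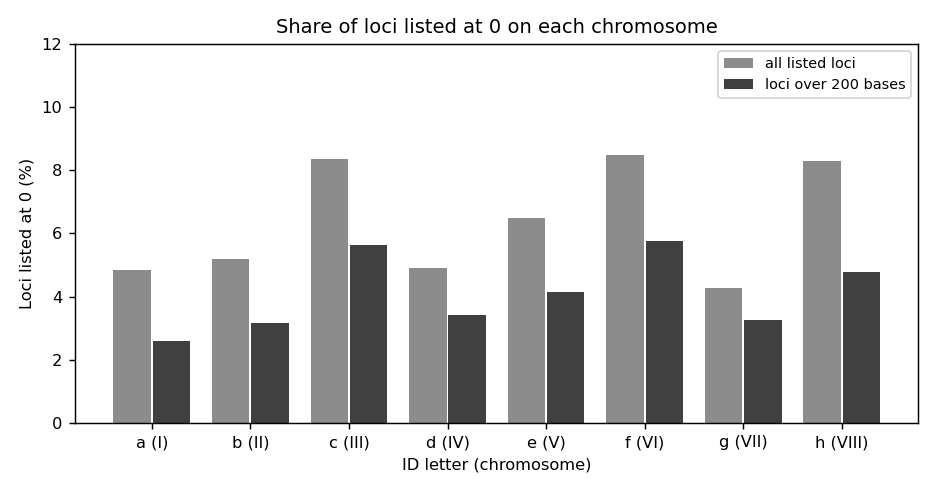
Percentage of listed loci at 0 in all 6 libraries (vertical axis) for each ID letter and its chromosome (horizontal axis), for all listed loci (grey) and for loci above 200 bases (black). Chromosomes III and VI lead in both, and the share of chromosome VIII drops from 8.29% to 4.76%.

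Several chromosome ends had a member close by, counted in listed IDs. The very last ID of chromosome III, POX_c04786 with 192 bases, was a member. No more than 2 IDs lay beyond the lowest member of chromosomes V (POX_e06155), VI (POX_f07335) and VIII (POX_h09380) and beyond the highest member of chromosomes II (POX_b03474) and VIII (POX_h09914). Chromosome VII had the widest margins, with 30 IDs below its lowest member, POX_g08558, and 48 IDs above its highest, POX_g09329. The median member lay 262 IDs from the nearer end of its chromosome, against 312 IDs for all loci. This pooled value mixes chromosomes of different size: members lay nearer the ends than all loci on VIII (86 against 132 IDs), III (246.5 against 322), VI (206.5 against 294), V (228.5 against 292) and I (428 against 479). They lay farther from the ends on II (415 against 381), IV (343 against 336.5) and VII (210.5 against 209.5).

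The 30 outermost loci at each end had about the same share at 0 as the loci next to them. Among the 480 loci that are the 30 outermost at either end, 36 were listed at 0 (7.5%), against 566 of 9321 elsewhere (6.07%). The 10 outermost had 16 of 160 (10%), while the next 10 held 9 and the 10 after them 11 of 160 each. Further in, the IDs 31 to 100 from an end had 83 of 1120 at 0 (7.41%), level with the 30 outermost. The share was lower beyond these, at 6.44% in the IDs 101 to 200 from an end and 5.76% in the IDs beyond 200. For loci above 200 bases the shares were 4.61% in the 30 outermost and 4.98% in the IDs 31 to 100 from an end. They were 4.33% in the IDs 101 to 200, 3.61% beyond 200, and 3.90% in all loci beyond the 30 outermost. The shares were not tested, and the counts at the ends rest on few loci. Low expression in a wider sense was more frequent there, since 22.3% of the outermost loci had a mean under 1 FPKM, against 13.5% elsewhere.

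The ends differed among themselves. The low end of chromosome VIII held 9 members among its 30 outermost IDs (30%), the low end of VI and the high end of III 5 each, and the low end of V 4. Both ends of chromosome VII and the low end of IV held none. At the low end of VIII the members stood among genes of very different levels. POX_h09386, POX_h09387 and POX_h09388, with 248, 729 and 1357 bases, adjoined POX_h09389, which was at 66.6, 46.2 and 36.2 FPKM in the mutant libraries, against 379, 333 and 273 FPKM in the parent libraries. POX_h09389 was lower in the mutant with no overlap between the strains (log2 change -2.73, SE 0.23; limma, adjusted p = 3.41e-05).

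Most members stood alone, and the others formed short runs. Members made up 6.14% of all loci with the letters a to h. What share would stand in runs if members were scattered was not computed. In locus-tag order, 414 members had no member beside them, or 68.8%. The other 188 members (31.2%) formed 77 runs of adjoining IDs, 58 of them of 2 loci, 9 of 3, 6 of 4, 3 of 5 and 1 of 6. Counting only unbroken numbers as adjoining also gave 77 runs, but not all the same ones. In POX_e06381 to POX_e06386 (5 loci) and POX_e06608 to POX_e06612 (4 loci) a number has no listed ID, so both are then split. Chromosome VI held 18 runs, III 14, V 13 and VII 4. Runs were about as common among short members (61 of 207 in a run, 29.5%) as among those above 200 bases (120 of 373, 32.2%). If short members were not counted, 31 runs with 77 loci were left.

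**Figure D4:**
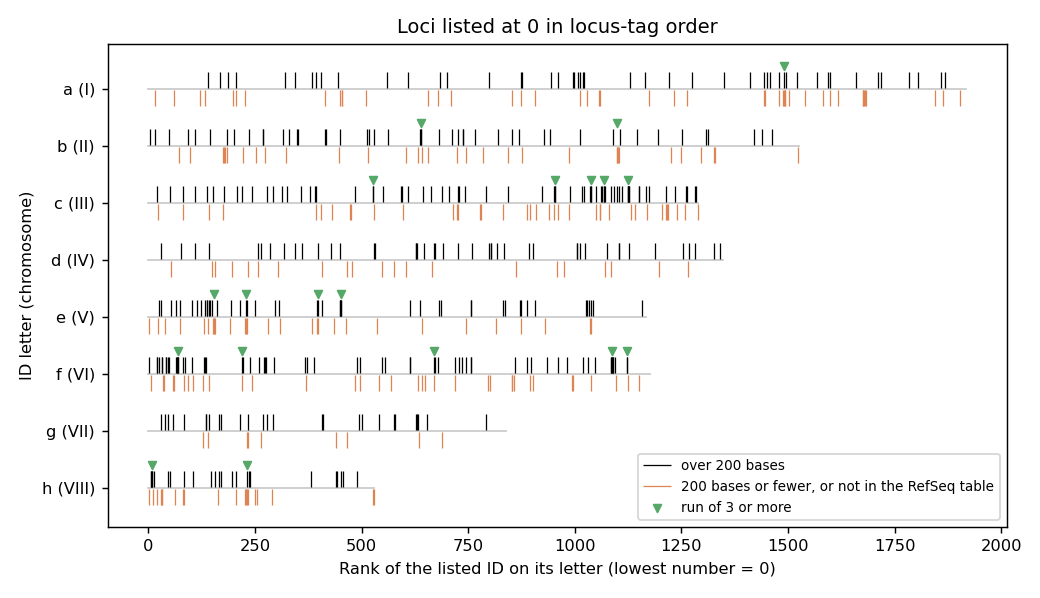
Position of each locus listed at 0 along the order of listed IDs (horizontal axis, rank on its letter from 0) for the 8 ID letters (vertical axis, chromosome in brackets). Black ticks above the line are loci above 200 bases, orange ticks below it are loci of 200 bases or fewer or not in the RefSeq table, and green triangles mark the 19 runs of 3 or more.

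The longest run, POX_f08434 to POX_f08439 on chromosome VI, held 6 loci of 285 to 1197 bases, so none of them was under the 200-base break. It lay 87 IDs from the high end. The nearest tested gene below it, POX_f08432, was at 25.2, 20.8 and 19.3 FPKM in the mutant libraries, against 22.6, 21.7 and 24.3 FPKM in the parent libraries. The nearest one above it, POX_f08440, was at 1.34, 1.22 and 1.37 FPKM in the mutant libraries, against 1.53, 1.10 and 1.95 FPKM in the parent libraries. The strains overlapped in both genes, and their adjusted p was over the threshold (0.67 and 0.70 in limma). After scaling all libraries to an equal sum (TPM), POX_f08432 was lower in the mutant (log2 change -0.44; limma, adjusted p = 0.026).

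Of the 3 runs of 5 loci, the one on chromosome III, POX_c04621 to POX_c04625, also held only loci above 200 bases, of 246 to 363 bases. Both of its flanking genes were lower in the mutant. POX_c04619 was at 4.86, 1.17 and 0.76 FPKM in the mutant libraries, against 6.40, 9.51 and 13.2 FPKM in the parent libraries (log2 change -1.87, SE 0.45; limma, adjusted p = 0.0077). POX_c04631, 6 IDs above the run, was at 2.80, 1.76 and 1.90 FPKM in the mutant libraries, against 23.4, 18.5 and 25.9 FPKM in the parent libraries (log2 change -2.91, SE 0.20; limma, adjusted p = 1.11e-05). The strains did not overlap in either gene. Between the run and POX_c04631 no listed locus exceeded 1.47 FPKM in any library. Of these, POX_c04627 and POX_c04629 were listed at 0 in all mutant libraries and stood at no more than 0.22 FPKM in the parent libraries.

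The runs of 5 on chromosomes I and V were made mostly of short loci. In POX_a01503 to POX_a01507 4 of 5 loci had 114 to 147 bases, and in POX_e06381 to POX_e06386 3 of 5 had 117 to 171 bases. POX_a01502, beside the first of these, was at 270, 232 and 228 FPKM in the mutant libraries, against 278, 297 and 322 FPKM in the parent libraries. The strains did not overlap but the gene did not pass the threshold (log2 change -0.30, SE 0.13; limma, adjusted p = 0.079); it passed with quantile normalization, with TPM scaling and without mutant replicate 1, at -0.54, -0.67 and -0.37. On the other side, POX_a01508 was at 11.5, 7.11 and 13.3 FPKM in the mutant libraries, against 36.5, 35.5 and 54.4 FPKM in the parent libraries, and was lower in mutant mycelium (log2 change -1.90, SE 0.25; limma, adjusted p = 0.00036). Beside the run on V, POX_e06380 was lower in the mutant, at 4.57 ± 1.18 FPKM for the mutant and 21.4 ± 3.25 FPKM for the parent (SD over 3 libraries; log2 change -2.02 ± 0.20 SE, limma adjusted p = 9.08e-05). POX_e06388, on the other side of that run, was at 2.06 ± 0.77 FPKM for the mutant and 2.52 ± 0.62 FPKM for the parent (SD over 3 libraries; limma, adjusted p = 0.51).

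The first of the 6 runs of 4 loci in ID order was POX_b02580 to POX_b02583 on chromosome II, of 117 to 624 bases. POX_b02579 below it was at 19.8 ± 6.46 FPKM for the mutant and 18.2 ± 2.06 FPKM for the parent (SD over 3 libraries; limma, adjusted p = 0.79). POX_b02584 above it was at 3.75 ± 1.01 FPKM for the mutant and 7.74 ± 2.10 FPKM for the parent (SD over 3 libraries; log2 change -0.87 ± 0.25 SE, limma adjusted p = 0.016). Without parent replicate 1 or 3 this gene did not pass the threshold (limma, adjusted p = 0.053 and 0.056). A run of 4 on chromosome V, POX_e06306 to POX_e06309, was made only of loci of 99 to 189 bases. The run of 4 on chromosome III, POX_c04437 to POX_c04440, held loci as long as 1907 and 2819 bases.

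The genes next to the loci listed at 0 had levels close to those of all tested genes, with more of them under 10 FPKM. The nearest tested gene was the next listed ID for 821 of the 981 sides of a run that had one (83.7%, single loci counted as runs), and it was never more than 10 IDs away. By definition these genes averaged at least 1 FPKM. These 896 distinct flanking genes had a median of 28.2 FPKM over the 6 libraries, with quartiles at 10.8 and 83.9 FPKM. All 8448 tested genes had a median of 31.9 FPKM, with quartiles at 13.9 and 82.7 FPKM. At least 100 FPKM was reached by 21.4% of flanking genes, against 21.2% of all tested genes. Levels under 10 FPKM were found in 23.7% of flanking genes, against 18.0% of all. For a gene at a low level, expression in few cells and little RNA per cell cannot be told apart in such bulk samples.

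At least 1000 FPKM was reached by 13 flanking genes, or 1.45%, against 2.36% of all tested genes. POX_h09441, beside the 168-base member POX_h09442, was at 11768, 16682 and 16421 FPKM in the mutant libraries, against 15081, 12076 and 8517 FPKM in the parent libraries. The strains overlapped (limma, adjusted p = 0.23). POX_d05594, beside POX_d05595 of 325 bases, was at 8794, 8485 and 8102 FPKM in the mutant libraries, against 1070, 1748 and 2047 FPKM in the parent libraries. All mutant values lay above all parent values (log2 change 2.43, SE 0.23; limma, adjusted p = 6.74e-05), 5.22-fold in the means.

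The other two of the 4 most abundant went in opposite directions. POX_c03700, beside POX_c03701 of 380 bases, was at 4222 ± 184 FPKM for the mutant and 2738 ± 148 FPKM for the parent (SD over 3 libraries; log2 change 0.63 ± 0.12 SE, limma adjusted p = 0.0030). Its rise did not pass the threshold with quantile normalization or TPM scaling, at log2 changes of 0.17 and 0.25. POX_c04643 was at 2291 ± 235 FPKM for the mutant and 4600 ± 1162 FPKM for the parent (SD over 3 libraries; log2 change -0.98 ± 0.19 SE, limma adjusted p = 0.0029). The member nearest to it has 105 bases.

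Flanking genes changed between the strains about as often as genes in general. Of the 896 flanking genes, 539 (60.2%) had a limma adjusted p under 0.05, where 60.5% of all 8448 tested genes did. A log2 change of at least 1 with such a p was reached by 30.02% of flanking genes, where 29.6% of all tested genes reached it. The strains did not overlap in 64.7% of flanking genes, against 68.1% of all tested genes. These shares are near the background and are no result about the loci listed at 0.

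Falls outnumbered rises among flanking genes. In the mutant 229 flanking genes were higher (25.6%) and 310 lower (34.6%), where 30.5% of all tested genes were higher and 30% lower. The median log2 change of flanking genes was -0.09, against -0.01 for all tested genes. The 788 tested genes that directly adjoin a member gave 204 rises and 273 falls, with the same median of -0.09. The summed FPKM was 1.34e+06 to 1.41e+06 in the mutant libraries, against 1.03e+06 to 1.08e+06 in the parent libraries. TPM scaling, which makes these sums equal, moved the median of all tested genes to -0.36 and that of flanking genes to -0.44. The 896 flanking genes then split into 140 rises and 438 falls, and all 8448 tested genes into 1656 rises and 3912 falls. The sets differ in size, so these counts are not compared directly. The difference between flanking genes and all tested genes was not tested, since flanking genes lie close together and are not independent of each other.

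The genes on opposite sides of a locus showed every combination of directions. Of the 490 runs and single loci with a tested gene on both sides, 39 had 2 rises, 63 had 2 falls and 83 had 1 rise and 1 fall. In 226 only 1 of the 2 genes changed, and in 79 neither did. The same counts were not made for pairs of genes in general, so nothing is read from them about the loci listed at 0.

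The largest rises beside members included genes with clear expression in the mutant and almost none in the parent. POX_f07338, near the low end of chromosome VI and with the adjoining member POX_f07339 above it and the member POX_f07335 3 IDs below it, was at 32.2, 42.7 and 62.7 FPKM in the mutant libraries, against 0.11, 0.10 and 0.08 FPKM in the parent libraries (log2 change 5.37, SE 0.24; limma, adjusted p = 1.15e-06). POX_c04716 was at 21.7, 39.8 and 46.5 FPKM in the mutant libraries, against 0.03, 0.03 and 0 FPKM in the parent libraries (log2 change 5.11, SE 0.28; limma, adjusted p = 3.19e-06). Both genes were near 0 in the parent. The members that adjoin them, POX_f07339 (168 bases) and POX_c04715 (96 bases), were listed at 0 in both strains. At these lengths, absent transcripts and values that were not obtained cannot be told apart, so no contrast with the rising genes is drawn. Below POX_c04716 stand the members POX_c04710, POX_c04711, POX_c04713 and POX_c04715, of which 3 have 151 bases or fewer.

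In the other large rises the parent was at a low level. POX_f07440 was at 154 ± 44.9 FPKM for the mutant and 2.91 ± 0.72 FPKM for the parent (SD over 3 libraries; log2 change 5.29 ± 0.22 SE, limma adjusted p = 8.48e-07). POX_c03558 was at 86.4 ± 6.19 FPKM for the mutant and 2.21 ± 0.45 FPKM for the parent (SD over 3 libraries; log2 change 4.77 ± 0.15 SE, limma adjusted p = 2.22e-07). This gene stands between POX_c03557, of 96 bases, and POX_c03560, of 1111 bases, both listed at 0. The member beside POX_f07440, POX_f07439, has 153 bases. At 96 and 153 bases, absent transcripts and values that were not obtained cannot be told apart. POX_d05691, beside POX_d05690 of 600 bases, was at 84.1 ± 40.1 FPKM for the mutant and 2.68 ± 0.67 FPKM for the parent (SD over 3 libraries; log2 change 4.43 ± 0.34 SE, limma adjusted p = 2.04e-05).

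The genes with the largest falls averaged 2.83 to 26.9 FPKM in the mutant, against 58.6 to 653 FPKM in the parent. POX_b03036, beside the 903-base member POX_b03035, was at 6.37, 6.99 and 8.15 FPKM in the mutant libraries, against 297, 232 and 339 FPKM in the parent libraries (log2 change -5.14, SE 0.17; limma, adjusted p = 2.50e-07). POX_g08575 was at 22.6 ± 2.09 FPKM for the mutant and 653 ± 269 FPKM for the parent (SD over 3 libraries; log2 change -4.71 ± 0.28 SE, limma adjusted p = 5.34e-06). Next came POX_a00459, at 7.36 ± 2.30 FPKM for the mutant and 195 ± 20.5 FPKM for the parent (SD over 3 libraries; log2 change -4.58 ± 0.20 SE, limma adjusted p = 9.84e-07). POX_a00202 was at 2.83 ± 0.71 FPKM for the mutant and 58.6 ± 13.1 FPKM for the parent (SD over 3 libraries; log2 change -3.95 ± 0.21 SE, limma adjusted p = 2.81e-06). No library of one strain reached the range of the other in any of these 4 genes. The 5 largest rises and 5 largest falls were chosen among flanking genes that passed the threshold without overlap between the strains. Their passing and their lack of overlap are therefore a description and no support. The members beside POX_g08575, POX_a00459 and POX_a00202 have 296, 102 and 150 bases. At 102 and 150 bases, absent transcripts and values that were not obtained cannot be told apart.

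POX_a00664, of 207 bases and so in the range where FPKM may stand for few fragments, had a fall that rests on uneven values. It was at 0, 0 and 80.8 FPKM in the mutant libraries, against 180, 102 and 163 FPKM in the parent libraries (log2 change -5.07, SE 1.51; limma, adjusted p = 0.020). It did not pass the threshold without mutant replicate 1 or without mutant replicate 2, at a log2 change of -4.01 each time (limma, adjusted p = 0.061 and 0.075), or with robust variance estimates (limma, adjusted p = 0.085). Its neighbours are the 159-base member POX_a00663 and POX_a00665, of 332 bases, which was listed at 0 in every mutant library and stood at 20.2, 5.93 and 12.2 FPKM in the parent libraries.

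**Figure D5:**
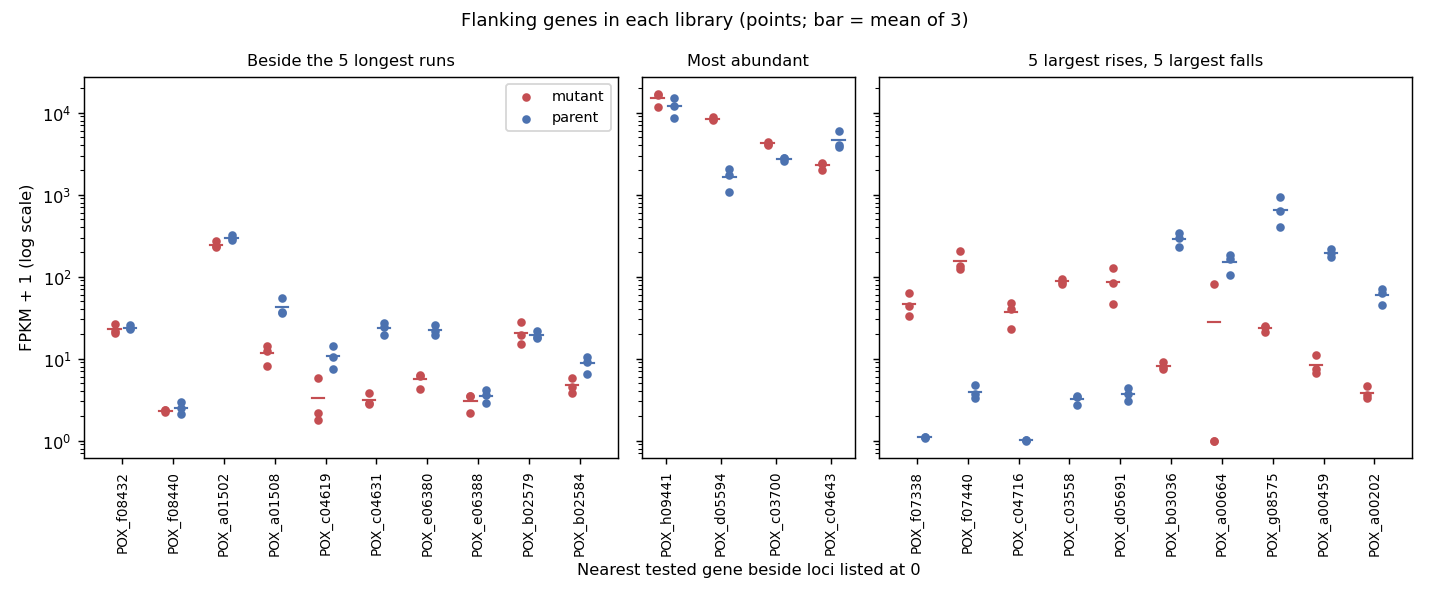
FPKM + 1 (vertical axis, log scale) in each library of the nearest tested genes beside loci listed at 0 (horizontal axis), mutant in red and left of parent in blue, with a bar at the mean of 3. The left panel holds the genes beside the 5 longest runs, and the middle panel the 4 most abundant flanking genes. The right panel holds the 5 largest rises and the 5 largest falls, chosen among genes in which the strains do not overlap.

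The 35 members of 1000 bases or more, singled out after their lengths were seen, are those for which a 0 is least bound up with length. The longest were POX_b02623 with 5343 bases, POX_f08238 with 4651 bases and POX_a01141 with 3390 bases. Of the 35, 26 had no member beside them, and 1 lay among the 30 outermost IDs of a chromosome end, POX_h09388. Their 66 flanking genes had a median of 29.3 FPKM and reached from 1.10 to 583 FPKM. Of these, 38 passed the threshold (57.6%, where 60.5% of all tested genes did), 11 higher and 27 lower in the mutant. Of all tested genes, 30.5% were higher and 30% lower. The split beside the long members rests on few genes and was not tested.

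Some long members stood between genes that both changed, and others between genes of which 1 or neither did. Neither passed the threshold beside POX_a01141, POX_d05149 or POX_b02656, for example. The 2 cases given next were picked after their values were seen, and nothing is read from them about long members in general. POX_d04929 (2352 bases) lay between POX_d04928, at 17.0, 15.1 and 22.7 FPKM in the mutant libraries, against 39.1, 38.4 and 45.2 FPKM in the parent libraries, and POX_d04930, at 44.7, 32.2 and 35.2 FPKM in the mutant libraries, against 96.4, 101 and 116 FPKM in the parent libraries. Both flanking genes were lower in the mutant with no overlap (log2 changes -1.14 and -1.47, SE 0.17 and 0.16; limma, adjusted p = 0.00071 and 0.00012). POX_b02623 lay between POX_b02622, which was lower in mutant mycelium (log2 change -0.43, SE 0.13; limma, adjusted p = 0.017), and POX_b02624, which was higher. POX_b02624 had 333, 334 and 363 FPKM in the mutant libraries, against 159, 147 and 169 FPKM in the parent libraries (log2 change 1.11, SE 0.12; limma, adjusted p = 0.00013).

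Few loci were listed at 0 in one strain and above 0 in every library of the other. There were 29 loci at 0 in the mutant only, with a median of 0.603 FPKM in the parent, and 23 at 0 in the parent only, with a median of 1.64 FPKM in the mutant. Of these, 11 and 10 were abundant enough to be tested, and all of them passed the threshold in limma, where 60.5% of all tested genes did. The choice by zeros fixes their direction and sets the strains apart in advance. Their passing and their p-values are therefore a description and no support. The clearest were chosen after their values were seen. POX_c04680, of 345 bases, was at 186, 145 and 170 FPKM in the mutant libraries and was listed at 0 in every parent library (log2 change on the log2(FPKM + 1) scale 7.39, SE 0.14; limma, adjusted p = 2.70e-08). POX_a00033, of 942 bases, was at 78.4, 69.0 and 95.8 FPKM in the mutant libraries and was listed at 0 in every parent library (log2 change on the same scale 6.35, SE 0.17; limma, adjusted p = 7.94e-08). Among loci at 0 in the mutant, the highest level was that of POX_b02439, of 216 bases and in the same uncertain range of lengths, listed at 0 in the mutant libraries and at 13.4, 23.0 and 13.8 FPKM in the parent libraries. The number of loci with the letters a to h at 0 in a single library was 983, 957 and 903 in mutant replicates 1 to 3 and 929, 915 and 954 in parent replicates 1 to 3, so the strains overlapped.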

How the data were processed

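The authors deposited 1 file per library with an FPKM value per gene to 2 decimals, per the file headers. Per the labels' protocols, spores came from plates kept for 4 days at 28 °C, and poly(A) RNA was made into random-primed libraries. The submitters' processing notes name bcl2fastq and HISAT2. No source used here names a program for counting, a build or an annotation, so no coordinates are printed.

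Of 9822 IDs, 9718 matched the RefSeq table (ASM172317v3), which gave chromosomes and lengths. Neighbours, runs and distances to chromosome ends follow the number order of the listed IDs within a letter, matched or not. Positions in the genome were not used for them. Whether its gene lengths are those used for the FPKM values is not stated. The table holds no proteins, so the planned protein comparison was not made.

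Strain differences came from limma 3.58.1 in R 4.3.3 on log2(FPKM + 1), two-sided, fitted to the 8448 genes that averaged 1 FPKM or more, with trended eBayes and Benjamini-Hochberg adjustment over these genes. A log2 change on this scale understates changes of low genes. The code was tested on simulated data. Counts, runs and figures were made with Python 3.11.15 and matplotlib 3.10.9. A flanking gene is the nearest tested gene on either side of a run.

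Named genes were those beside the 5 longest runs, the 4 most abundant flanking genes, the 5 largest rises and 5 largest falls among called flanking genes that averaged 10 FPKM or more without overlap between strains, and the 3 lowest and 3 highest loci just outside the rule. Other names were added after their values were seen. The members and rules were chosen with earlier results of these data known, and the split by length was made after seeing the data.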

Additional observations from a re-analysis of the deposited data

How the results depend on the processing

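The number of loci listed at 0 ranged over 618 to 656 with any single library omitted, and was 641 if every value under 0.1 FPKM counted as 0. It was 1364 for a mean under 1 FPKM, which by construction takes in every untested locus, and 373 with only lengths above 200 bases, a setting chosen after seeing the data. The share in the 30 outermost IDs was 7.5% to 8.12% without each library (6.23% to 6.62% elsewhere). It was 7.81% and 7.12% for windows of 20 and 50 IDs (6.09% and 6.05% elsewhere). For a mean under 1 FPKM it was 22.3% (13.5% elsewhere), and above 200 bases 4.61% (3.90% elsewhere). Runs numbered 77 to 85 without each library, 19 and 10 with a minimum of 3 and 4 loci, 230 for a mean under 1 FPKM and 31 above 200 bases. Changed flanking genes numbered 443 to 516 without each library (changed genes overall 4341 to 5119, adjoining genes 390 to 456). With TPM scaling 578 changed, or 64.5%, where 65.9% of all tested genes did. With the nearest gene of any value above 0, 495 of 936 changed (52.9%). Without the filter on the mean, 56.3% of all 9215 genes with any value above 0 changed. Above 200 bases, 307 of 495 adjoining genes changed (62%), a lower number because fewer genes adjoin these loci.

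Replicate numbers gave no pairing: libraries sharing a number had deviations correlated at -0.06, -0.0029 and 0.15, and for 2 of 6 the best match was the same number. With a replicate block 5103 genes and 530 flanking genes changed, 515 of these among the 539, and 471 adjoining genes changed. No flanking gene changed direction while called in both fits under any of the 16 settings. Sign changes of the log2 change among named genes, none past the threshold, were those of POX_f08432 (0.013 with quantile normalization; -0.18 to 0.0044 without each library), POX_f08440 (-0.24 to 0.0026 without each library), POX_e06388 (-0.36 to 0.0080 without each library), POX_b02579 (-0.28 with TPM scaling; -0.16 to 0.29 without each library) and POX_h09441 (-0.027 with TPM scaling). The cause of these was not tested. No count model was used, since there are no counts.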
